A study of Mus musculus with 8 samples.

Results

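Sites of RNA:DNA hybrids that differed by *Rtel1* genotype while RNaseH1 was induced were examined by setting the peak list of *Rtel1*-deleted cells with doxycycline (Cre DOX) against that of *Rtel1*-proficient cells with doxycycline (GFP DOX). A peak was called shared when it overlapped a peak of the other list by at least 1 bp, and otherwise it was taken as found in its own list only. Of the 165300 peaks in both lists, 96416 were found in 1 list only, namely 73854 of the 105081 Cre DOX peaks and 22562 of the 60219 GFP DOX peaks. All 4 peak lists of the series together held 344010 peaks.

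The cells were mouse embryonic fibroblasts (MEFs) with floxed *Rtel1* alleles and a doxycycline-inducible fusion of wild-type RNaseH1 to GFP, named Rtel1F/F;WT RNH1-GFP MEFs. Cre DOX cells received adenovirus expressing Cre-GFP and GFP DOX cells received adenovirus expressing GFP. Both received doxycycline at 2 µg/ml from 48 h after infection and were collected another 48 h later, so the inducible RNaseH1 and the drug were common to both groups and only the virus differed. Corresponding lists without doxycycline (Cre mock and GFP mock, 91097 and 87613 peaks) were used only to ask where else a peak was present. Hybrids were recovered by DNA-RNA immunoprecipitation and sequencing (DRIP-seq) with the S9.6 antibody from pooled immunoprecipitations, which gave 1 library per condition. Differences between the lists thus have no replicate spread to be judged by, and none was tested. The 95% intervals given with shares are exact (Clopper-Pearson) intervals that cover counting error only. Read totals are not part of the lists, which leaves sequencing depth unknown, and a difference in depth and a difference in genotype cannot be told apart. Fewer cells with a hybrid at a site and less hybrid per cell cannot be told apart either.

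An R-loop is an RNA:DNA hybrid beside a displaced single strand of DNA, and it commonly arises where genes are transcribed. RNaseH1 degrades the RNA of such hybrids. RTEL1 is a helicase that disassembles telomere loops and unwinds G-quadruplexes (G4s), folded structures of guanine-rich DNA that can arise on the displaced strand of an R-loop. A hybrid can thus be removed by a nuclease or by helicases, and G4s and R-loops often share guanine-rich sequence.

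The deleted gene and the loci of the study's targeted assays were examined first. *Rtel1* held a single Cre DOX peak (chr2:181349370-181349810, over coding sequence, score 10, 2.61-fold enrichment) and no GFP DOX peak. The score is the peak caller's, 10 times the −log10 q-value. Its scale can differ between lists (the top decile of Cre DOX began at 31, that of GFP DOX at 28). Scores of different lists are therefore given side by side and their order is not read. In Cre mock the gene held 2 peaks with scores of 14 and 21, at other positions, and in GFP mock it held none. A peak list does not show whether the floxed exons were lost, so this is no check of the deletion. *Bcl6*, a transcriptional repressor gene of germinal-centre B cells, held a Cre DOX peak with a score of 14 and none in the other 3 lists. *Actb*, encoding β-actin, had a peak in both doxycycline lists (scores 38 in Cre DOX and 28 in GFP DOX) and in both mock lists (38 and 20), and the endogenous *Rnaseh1* had none in any list.

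The sequences of the strongest one-list-only peaks show what such sites look like. They are the 3 highest-scoring peaks of each list that were at most 300 bp wide, intergenic or intronic and outside untranslated exons. They are given 5′ to 3′ on the plus strand of the GRCm38.p6 (mm10) RefSeq reference, with bases in predicted G4s of either strand (G4Hunter, windows of 25 bases, absolute score of at least 1.5) in capitals.
Cre DOX peak at chr12:10693744-10693964: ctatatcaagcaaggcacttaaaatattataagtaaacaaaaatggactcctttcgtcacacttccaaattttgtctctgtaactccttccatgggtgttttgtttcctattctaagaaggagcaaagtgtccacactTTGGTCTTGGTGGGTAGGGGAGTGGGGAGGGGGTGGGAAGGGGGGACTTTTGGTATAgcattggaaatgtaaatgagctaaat
Cre DOX peak at chr17:3379811-3380023: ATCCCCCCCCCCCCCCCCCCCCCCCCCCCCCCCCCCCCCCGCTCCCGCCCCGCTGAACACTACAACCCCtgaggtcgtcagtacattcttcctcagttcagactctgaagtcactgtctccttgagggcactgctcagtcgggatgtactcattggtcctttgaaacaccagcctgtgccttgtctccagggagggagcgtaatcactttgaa
Cre DOX peak at chr14:113377095-113377334: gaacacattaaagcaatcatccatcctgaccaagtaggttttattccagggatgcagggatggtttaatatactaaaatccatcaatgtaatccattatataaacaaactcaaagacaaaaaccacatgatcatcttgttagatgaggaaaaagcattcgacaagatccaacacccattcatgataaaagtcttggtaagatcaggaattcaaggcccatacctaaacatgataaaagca
GFP DOX peak at chr3:18858682-18858820: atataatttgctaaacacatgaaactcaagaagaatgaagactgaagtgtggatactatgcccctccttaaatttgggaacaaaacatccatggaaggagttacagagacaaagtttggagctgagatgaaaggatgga
GFP DOX peak at chr8:118847217-118847323: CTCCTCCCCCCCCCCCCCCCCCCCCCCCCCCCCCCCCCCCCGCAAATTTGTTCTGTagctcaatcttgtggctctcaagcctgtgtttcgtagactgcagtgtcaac
GFP DOX peak at chr6:34981489-34981655: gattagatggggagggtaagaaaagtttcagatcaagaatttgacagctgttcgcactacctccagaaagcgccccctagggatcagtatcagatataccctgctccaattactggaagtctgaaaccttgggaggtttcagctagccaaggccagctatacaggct
The first is intergenic, 29.7 kb from the gene model *Gm4928* and 298 kb from the nearest protein-coding gene, and has 57 of its 221 bases in predicted G4s. Its score was 214, the highest of any Cre DOX peak without a GFP DOX counterpart, but it also overlapped peaks of both mock lists, with scores of 221 in Cre mock and 192 in GFP mock. The peak on chromosome 17 (score 183) lies in an intron of *Tiam2*, a Rac guanine nucleotide exchange factor, and holds a run of 38 cytosines near its start. It too overlapped peaks of both mock lists (143 and 179). The peak on chromosome 14 (score 205) was repeat-masked along its entire length, held no predicted G4 and overlapped a Cre mock peak with a score of 83 and none in GFP mock. Of the GFP DOX peaks, that on chromosome 3 (score 166) was intergenic and masked throughout, and overlapped Cre mock (204) and GFP mock (101) peaks. That on chromosome 8 (score 159) lies in an intron of *Cdh13*, a cadherin without a cytoplasmic domain, at the narrowest width of its list, 107 bp. It holds a run of 36 cytosines and overlapped no peak in the other 3 lists. That on chromosome 6 (score 158) lies in an intron of *Slc23a4*, was almost free of masked sequence (1.80%) and overlapped peaks of both mock lists (132 in Cre mock and 135 in GFP mock). A cytosine run was thus the leading feature of a peak in each list, and 5 of the 6 sites shown were also occupied in at least 1 mock list.

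In Cre DOX, 70.3% of peaks (95% interval 70.0 to 70.6) were absent from GFP DOX, and in GFP DOX 37.5% (37.1 to 37.9) were absent from Cre DOX. Peaks found in Cre DOX only covered 40.2 Mb, which was 45.1% of the length of that list, whereas peaks found in GFP DOX only covered 6.66 Mb, or 20.8% of that list. The shared peaks were 31227 in Cre DOX and 37657 in GFP DOX, because a Cre DOX peak met several GFP DOX peaks in 19.1% of shared cases, and the reverse held in 3.24%. Among the 23236 pairs in which 1 peak of each list met only the other, the Cre DOX peak was the wider in 80.9%, with a median width of 894 bp against 417 bp. The share absent was higher for Cre DOX than for GFP DOX under each alternative tried, but it moved between 59.5% and 88.0% for Cre DOX and between 25.7% and 77.9% for GFP DOX.

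**Figure D1:**
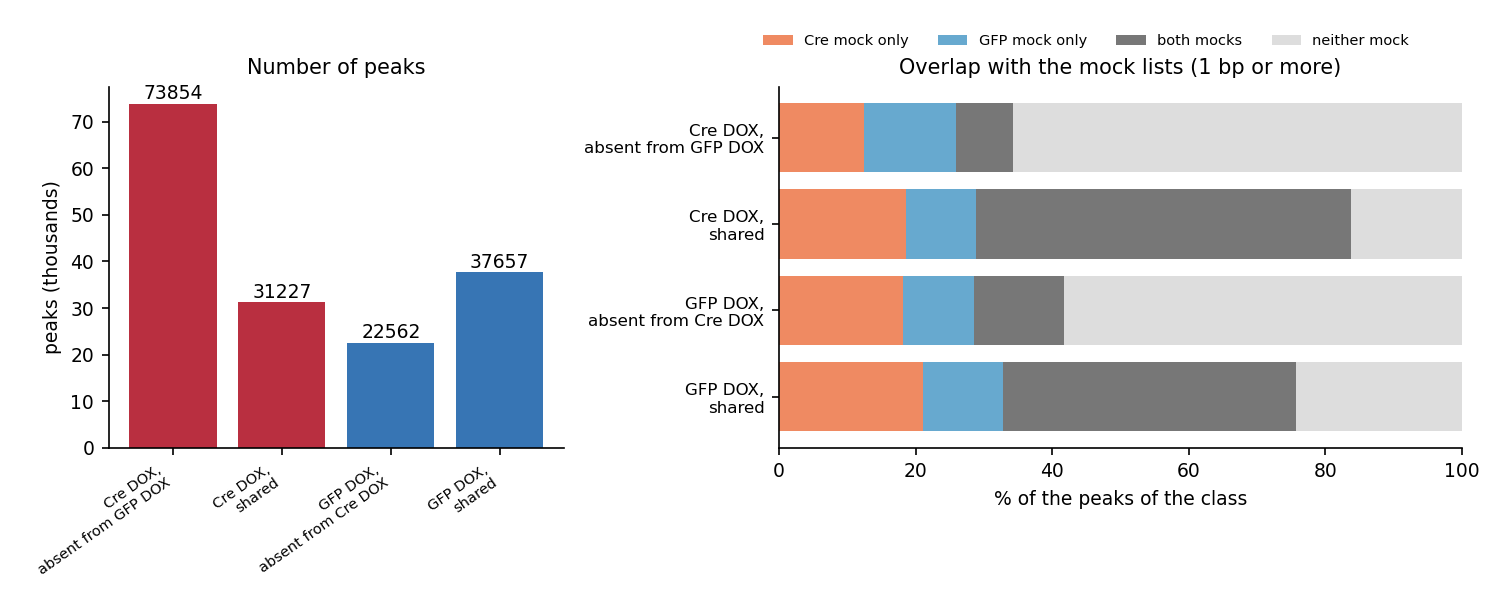
Left, number of peaks (in units of 1000) found in 1 doxycycline list only or shared, for Cre DOX (red) and GFP DOX (blue). Right, share of each class that overlapped a peak of Cre mock only, GFP mock only, both mock lists or neither. Most peaks found in 1 doxycycline list only overlapped neither mock list (65.8% and 58.3%), whereas 16.3% of shared Cre DOX peaks and 24.2% of shared GFP DOX peaks overlapped neither.

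One-list-only peaks were narrower and weaker than shared peaks in both lists. Part of the difference in width follows from the overlap rule, by which a wide peak is more easily shared. The median width was 415 bp for peaks found in Cre DOX only and 1099 bp for shared Cre DOX peaks, and 238 bp for peaks found in GFP DOX only and 446 bp for shared GFP DOX peaks. The widest peak without a counterpart measured 5674 bp in Cre DOX and 3002 bp in GFP DOX, while shared peaks reached 21678 bp and 26395 bp. The narrowest width differed between the lists, 213 bp in Cre DOX and 107 bp in GFP DOX, and 17.7% and 18.6% of the one-list-only peaks lay exactly at it, against 2.89% and 6.10% of the shared peaks. Median scores were 16 against 23 in Cre DOX and 15 against 17 in GFP DOX. A difference in width between Cre DOX and GFP DOX classes therefore includes this difference between the lists, whose origin the lists do not give.

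**Figure D2:**
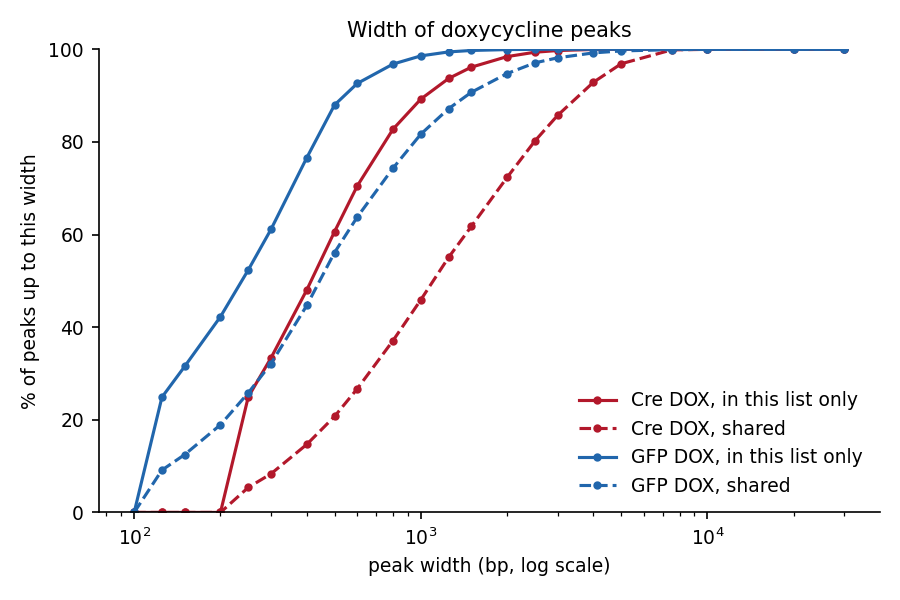
Cumulative share of peaks (vertical axis, %) up to a given width (horizontal axis, bp, log scale) for peaks in 1 list only (solid) and shared peaks (dashed) of Cre DOX (red) and GFP DOX (blue). Peaks found in 1 list only lie to the left of the shared peaks of the same list, with medians of 415 against 1099 bp and 238 against 446 bp. The overlap rule accounts for part of this, as a wide peak is more easily shared.

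The share of peaks without a counterpart was lowest among the strongest and widest peaks. For width this is partly fixed by the overlap rule, since a wide peak meets another more easily. In Cre DOX the share absent from GFP DOX was 89.5% (89.0 to 89.9) at scores up to 12, 57.7% at scores over 20 and up to 30, and 8.30% (5.28 to 12.3) at scores over 100. In GFP DOX it went from 55.7% (54.6 to 56.7) through 29.8% to 3.30% (1.59 to 5.99) in the same classes. The decrease in GFP DOX was not steady, as 34.1% of peaks with scores over 30 and up to 50 were absent. Of the 984 Cre DOX peaks wider than 5 kb, 5 were absent from GFP DOX (0.508%, 0.165 to 1.18), and none of the 137 GFP DOX peaks of that width was absent from Cre DOX (upper limit 2.66%). Among peaks with scores over 100, 22 were found in Cre DOX only and 10 in GFP DOX only. The 22 were 213 to 494 bp wide, 13 were intergenic, 2 were at most 50% masked, 8 overlapped peaks of both mock lists and 9 of neither. The 10 were 107 to 495 bp wide, 3 were intergenic, 7 were at most 50% masked, 8 overlapped peaks of both mock lists and 1 of neither.

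The share absent also varied with repeat-masked sequence, in different ways in the 2 lists. The lower-case bases of the reference mark interspersed and simple repeats, and they made up 36.4% of the genome. Peaks found in GFP DOX only had a median of 23.9% masked bases, while shared GFP DOX peaks had 98.3%. Peaks found in Cre DOX only had 94.5% and shared Cre DOX peaks 97%. Accordingly, 76.8% (75.7 to 77.9) of GFP DOX peaks without a masked base were absent from Cre DOX, but 15.1% (14.5 to 15.6) of those with more than 75% but not all of their bases masked. In Cre DOX the share was 77.5% without masked bases, 63.2% in the same partly masked class and 78.4% where all bases were masked, so it did not decline with masking. Counted by sequence, 18353 peaks found in Cre DOX only and 14279 found in GFP DOX only were at most 50% masked, a ratio of 1.29. Among peaks more than 50% masked the numbers were 55501 and 8283, a ratio of 6.70. The excess of Cre DOX over GFP DOX sites therefore lay mainly in masked sequence. The ratio of all peaks, shared or not, was 1.17 at up to 50% masked and 2.08 above it, and without doxycycline the mostly masked peaks numbered 49260 in Cre mock and 55854 in GFP mock. Reads in repeats can be hard to place, and the part of mapping and depth in these numbers was not tested.

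**Figure D3:**
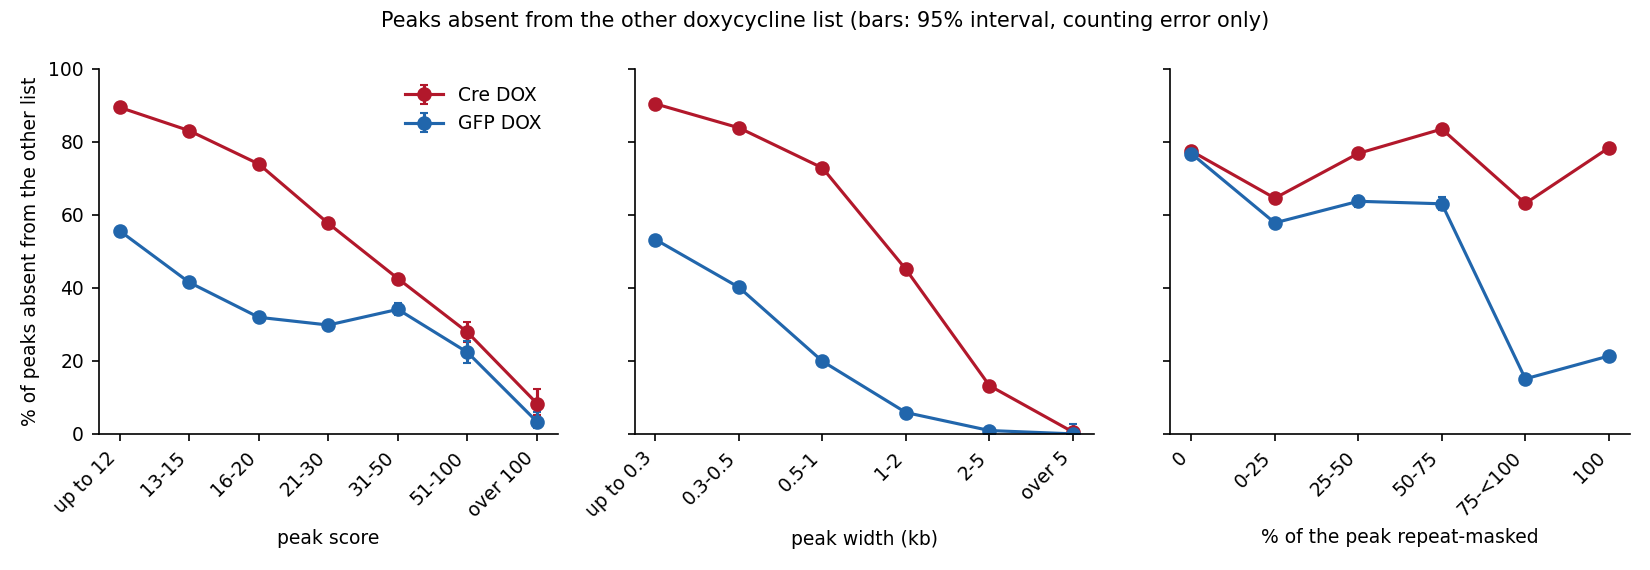
Share of Cre DOX peaks (red) and GFP DOX peaks (blue) absent from the other list (vertical axis, %) by peak score (left), width in kb (middle) and masked share (right). Vertical bars are 95% intervals for counting error. The share absent declines to 8.30% and 3.30% at scores over 100, and in GFP DOX it is 76.8% without masked bases and 21.3% where all bases are masked.

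The genes near these sites followed the same division. Peaks were assigned to a promoter (1 kb to either side of any annotated start site), failing that to an exon, then an intron, and otherwise called intergenic. Of the peaks found in GFP DOX only, 21.2% (20.7 to 21.8) overlapped a promoter and 9.74% an exon, and 35.2% (34.5 to 35.8) were intergenic. Of the peaks found in Cre DOX only, 8.14% (7.94 to 8.34) overlapped a promoter and 3.64% an exon, and 60% (59.6 to 60.4) were intergenic. The shared peaks overlapped promoters in 14.5% of Cre DOX and 11.8% of GFP DOX, so the promoter share was lower in peaks found in Cre DOX only, and higher in peaks found in GFP DOX only, than in the shared peaks of the same list. Wide peaks reach more promoters, so midpoints were compared too. By midpoint 6.94% of peaks found in Cre DOX only and 19.7% of those found in GFP DOX only lay in promoters, which make up 6.05% of the genome. The median distance to a start site was 16.6 kb for Cre DOX only and 6.42 kb for GFP DOX only, against 16 kb and 17.8 kb for shared peaks. Gene ends followed the promoters, with 7.72% of peaks found in Cre DOX only and 17.1% of those found in GFP DOX only within 1 kb of an annotated end, and coding sequence was overlapped by 4.18% and 13.4%.

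The contrast was smaller at equal masking. Among peaks at most 50% masked, 24.7% (24.1 to 25.3) of those found in Cre DOX only and 30.5% (29.8 to 31.3) of those found in GFP DOX only overlapped a promoter, against 50.3% and 49.1% of the shared peaks. Among mostly masked peaks the shares were 2.66% and 5.20%. Within unmasked sequence, the peaks of either list without a counterpart were thus less often in promoters than the shared peaks of the same list, and the order of the 2 lists did not change. Peaks between 300 and 1000 bp wide gave 8.54% in Cre DOX only and 25.2% in GFP DOX only.

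**Figure D4:**
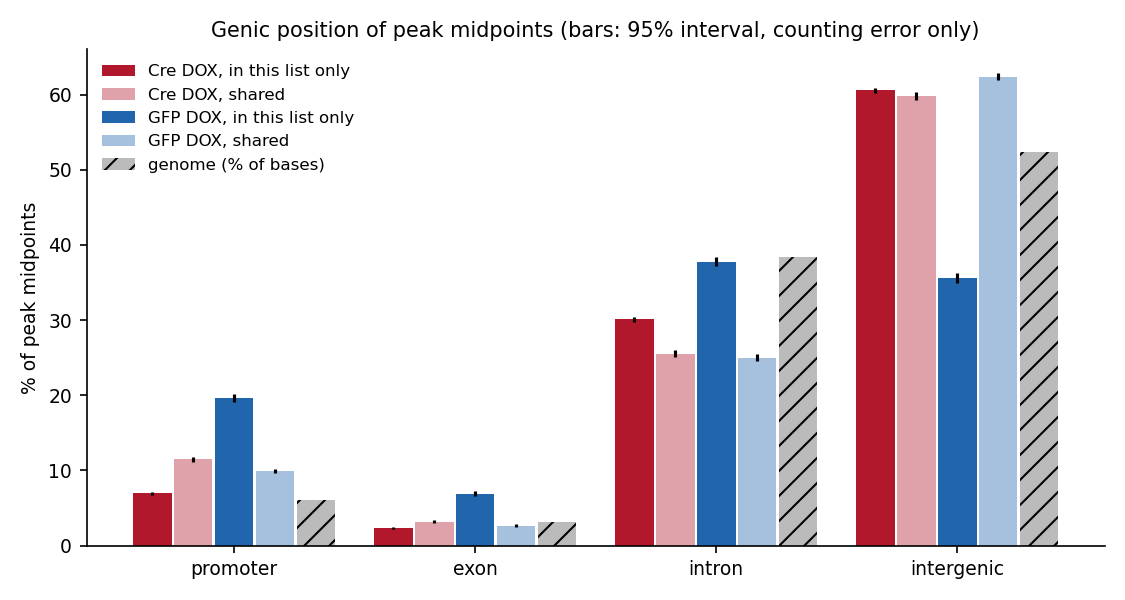
Share of peak midpoints (vertical axis, %) in promoters, exons, introns and intergenic sequence for peaks in 1 list only (dark) and shared peaks (light) of Cre DOX (red) and GFP DOX (blue), beside the share of genome bases (hatched). Black bars are 95% intervals for counting error. Midpoints of peaks found in GFP DOX only lie in promoters in 19.7% and in intergenic sequence in 35.6%, and those found in Cre DOX only in 6.94% and 60.6%.

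The share of peaks with a predicted G4 was close to that of genome windows of the same median width for Cre DOX only and above it for GFP DOX only. A predicted G4 lay in 20.1% (19.8 to 20.4) of peaks found in Cre DOX only, and in 19.3% of consecutive genome windows of 415 bp. It lay in 27.0% (26.5 to 27.6) of peaks found in GFP DOX only, against 11.8% of windows of 238 bp. Shared Cre DOX peaks had one in 29.9% (windows of 1099 bp, 41.4%) and shared GFP DOX peaks in 16.3% (windows of 446 bp, 20.6%). These shares depended on the G4 definition, peak score, masking and width. At a G4Hunter score of at least 2, 10.5% of peaks found in Cre DOX only and 11.2% of those found in GFP DOX only held one. Genome windows were not scored at that limit. Among peaks with scores over 30 the shares were 20.1% and 20.8%. Among peaks at most 50% masked, 33.6% (33.0 to 34.3) of those found in Cre DOX only and 33.7% (32.9 to 34.5) of those found in GFP DOX only held a predicted G4, although the former were wider (medians 358 and 260 bp). Among peaks 300 to 1000 bp wide the shares were 22.2% and 39.4%. The shared peaks at most 50% masked had one in 63.1% of Cre DOX and 55.8% of GFP DOX. GC content had a median of 42.3% in peaks found in Cre DOX only, 48.6% in those found in GFP DOX only, 39.4% in shared Cre DOX peaks and 38.8% in shared GFP DOX peaks. Telomeric repeats inside chromosomes, searched as 3 units of TTAGGG in a row on either strand, were rare, with 17 peaks found in Cre DOX only and 4 found in GFP DOX only, against 67 and 64 shared peaks. The share of windows holding such a repeat was 0.00629% at 415 bp and 0.00382% at 238 bp, and the share of peaks was 0.023% and 0.0177%. Runs of 10 CA units, on either strand, lay in 3.76% of peaks found in Cre DOX only (windows, 3.97%) and in 3.34% of those found in GFP DOX only (windows, 2.30%).

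Whether a one-list-only site was occupied without doxycycline was asked of both mock lists. Of the peaks found in Cre DOX only, 20.7% (20.4 to 21) overlapped a Cre mock peak and 21.9% (21.6 to 22.2) overlapped a GFP mock peak. Of the peaks found in GFP DOX only, 23.5% (22.9 to 24.0) overlapped a GFP mock peak and 31.3% (30.7 to 31.9) a Cre mock peak. In neither list, then, did the one-list-only sites overlap the mock list of their own genotype more often than that of the other genotype. For Cre DOX only this order depended on the peaks used. With all lists limited to peaks of −log10 q of 2 or more, 22.7% overlapped Cre mock and 20.5% GFP mock. Of the promoter peaks, taken without that limit, 33.3% overlapped Cre mock and 23.2% GFP mock. For GFP DOX only the share in Cre mock was higher with all peaks, under that limit (34.4% against 26.7%), in the top decile of scores (28.8% against 23.6%) and with midpoints (22.4% against 20.0%). Among peaks found in GFP DOX only with scores over 30 the shares were alike. They were 52.5% (49.8 to 55.2) in Cre mock and 52.0% (49.3 to 54.7) in GFP mock. Shared Cre DOX peaks overlapped Cre mock in 73.5% and GFP mock in 65.1%, and shared GFP DOX peaks in 63.9% and 54.7%. Of the peaks found in GFP DOX only, 18.2% (17.7 to 18.7) overlapped Cre mock and not GFP mock, as did 21% of the shared GFP DOX peaks. In the mirrored class, 13.5% of peaks found in Cre DOX only overlapped GFP mock and not Cre mock, as did 10.2% of the shared Cre DOX peaks.

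The distance to the nearest peak of the other list differed between the classes. It also depends on how many peaks the other list holds, 105081 in Cre DOX and 60219 in GFP DOX. The part of list size in the difference was not tested. Of the peaks found in GFP DOX only, 31.5% had a Cre DOX peak within 1 kb, and the median gap was 3.30 kb. Of those found in Cre DOX only, 15.2% had a GFP DOX peak within 1 kb, with a median gap of 10.0 kb and 16.1% over 50 kb away. At the boundary of the rule, 1355 peaks found in Cre DOX only and 1439 found in GFP DOX only were less than 100 bp from a peak of the other list, and 152 and 154 shared peaks overlapped by fewer than 10 bp.

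Chromosome X stood apart from the autosomes. Peaks found in Cre DOX only numbered 7303 on X, or 42.7 per Mb, above every autosome (19.4 per Mb on chromosome 12 to 34.5 on chromosome 17). Peaks found in GFP DOX only were at 4.91 per Mb on X, within the range of the autosomes (4.34 on chromosome 14 to 16.3 on chromosome 11). Their ratio was 8.69 on X and 1.81 to 4.73 on autosomes. Of all Cre DOX peaks on X, 67.7% (66.8 to 68.6) were absent from GFP DOX, within the autosome range of 59.6% to 81.0%. Shared Cre DOX peaks were also dense on X, at 20.4 per Mb against 4.55 to 20.8 on autosomes. Of all GFP DOX peaks on X, 15.7% (14.8 to 16.7) were absent from Cre DOX, against 25.6% to 53.7% on autosomes. The X-linked sites were mostly in repeats outside genes, as 79.0% of those found in Cre DOX only were intergenic (57.9% on autosomes) and their median masked share was 98.1% (93.7% on autosomes). On chromosome 11, which is rich in genes, 53.7% of GFP DOX peaks were absent from Cre DOX.

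Peaks found in GFP DOX only were more frequent where genes were dense, while those found in Cre DOX only followed no steady course. In windows of 1 Mb without a protein-coding gene, the mean was 35.8 peaks found in Cre DOX only and 3.51 found in GFP DOX only, a ratio of 10.2. With 6 to 10 such genes the means were 24.4 and 8.00, and with 21 or more they were 40 and 23.3, a ratio of 1.72. Of 2585 windows, 122 (4.72%) held more peaks found in GFP DOX only. The window with most of these was on chromosome 10 (chr10:80000001-81000000), with 92 found in GFP DOX only and 63 in Cre DOX only among 55 protein-coding genes. The window with most peaks found in Cre DOX only was on X (chrX:8000001-9000000), with 110 against 16.

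Over protein-coding genes, promoter peaks were found in Cre DOX only for 2207 of 21951 genes (10.1%) and in GFP DOX only for 1823 (8.3%), and 3849 promoters had peaks in both lists. Peaks in gene bodies were found in Cre DOX only for 3190 genes (14.5%) and in GFP DOX only for 1610 (7.33%), and in both for 7930. Over all 55450 annotated genes, promoter peaks numbered 4100 in Cre DOX only and 2677 in GFP DOX only, but with the top decile of scores in each list they were 737 and 849, so the order of the genotypes reversed. Of 9940 processed pseudogenes, 555 (5.58%) had a promoter peak in Cre DOX only and 130 (1.31%) in GFP DOX only, beside 7.39% and 4.83% of all genes. Neither list had a promoter peak for 91.1% of them, beside 78.2% of all genes. Promoters of protein-coding genes found in Cre DOX only had a Cre mock peak in 53.4% and a GFP mock peak in 41.5%. Those found in GFP DOX only had a Cre mock peak in 63.9% and a GFP mock peak in 52.4%, and 22.9% of them had neither, against 33.2% of the Cre DOX only promoters.

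The 10 protein-coding genes with the strongest Cre DOX promoter peak and no GFP DOX peak in a promoter included receptors and enzymes of varied function. *Ppp2cb*, a catalytic subunit of protein phosphatase 2A, led with a score of 143 and 6.49-fold enrichment (chr8:33598744-33598962, upstream of the gene, fully masked, with a predicted G4). Its promoter also had peaks in Cre mock (128) and GFP mock (160), so GFP DOX was the only list without one. *Gria1*, a subunit of AMPA-type glutamate receptors, had a peak over its 5′ untranslated exon (score 55, 5.07-fold, chr11:57012742-57013087), and *Bnc2*, a zinc finger protein, had a peak with a GC content of 71.5% over 5′ untranslated and coding sequence (score 54). Both genes had GFP DOX peaks elsewhere in the body, with scores of 23 and 12. *Oasl2*, an interferon-induced member of the oligoadenylate synthetase family, had a score of 49 and a Cre mock peak (17) only. *Hsbp1*, which binds heat shock factor 1, had a score of 46 and neither its peak nor its promoter met a peak of the other 3 lists. *Taar7a*, a trace amine receptor, and *Vmn1r77*, a vomeronasal receptor, had scores of 46 and 44. The peaks of *Ugt3a2* (score 57), *Cckbr* (50), the receptor for gastrin and cholecystokinin, and *AY761185* (49) were 1850, 1731 and 5416 bp wide and met a GFP DOX peak outside the promoter, so they belong to the shared peaks. Of these 10 promoters, 7 had a peak in Cre mock and 6 in GFP mock.

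The mirrored 10 promoters of GFP DOX were led by mitochondrial DNA. A peak of 129 bp at chrM:9761-9889, over the neighbouring *mt-Nd3* and *mt-Nd4l*, which encode subunits of respiratory complex I, had a score of 293 but only 2.63-fold enrichment. It was present in Cre mock (213) and GFP mock (509) and absent from Cre DOX, and it was also the highest-scoring of all peaks found in GFP DOX only. *Dnase2b*, an acid endonuclease, followed with a score of 89 (chr3:146615425-146615592) and mock scores of 113 in Cre and 29 in GFP. *Prkar2a*, a regulatory subunit of protein kinase A, had a score of 79 (GC content 77.0%) and *Ccdc149* 72 (GC content 78.2%), and both had peaks in each mock list. *Mapre3*, a protein of growing microtubule ends, had a score of 67. A peak with a score of 61 lay in *Setdb2*, a SET-domain protein, and in the promoters of both *Setdb2* and its neighbour *Cab39l*. *Nkx3-2*, a homeobox gene of skeletal development, had a score of 59, *Col28a1*, a collagen gene, 58, and *Frat2*, a GSK3-binding regulator of Wnt signalling, 58. *Hydin*, required for motile cilia, had a peak of 1794 bp (score 62) that met a Cre DOX peak outside the promoter. Of the 10, 8 had a promoter peak in Cre mock and 9 in GFP mock. Peaks with a GC content over 70% numbered 4 among these 10 and 1 among the Cre DOX set.

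The other highest-scoring one-list-only peaks were 1 intergenic, 1 intronic and 1 promoter site. The next ones of Cre DOX after those shown above were 65.2 kb from *Kcnh5*, a potassium channel gene (score 171, present in GFP mock with 113), and in an intron of *Nkain2*, a partner of the Na,K-ATPase (168, present in Cre mock with 205 and GFP mock with 244). The next one of GFP DOX lay in *Cdyl*, a chromodomain protein gene, over the promoter of a small nuclear RNA gene, *Gm22126* (score 137, mock scores 116 in Cre and 126 in GFP).

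The genes with the most one-list-only peaks differed between the lists apart from 1 gene model. The counts follow in part how many peaks a gene held, and over the whole lists 70.3% of Cre DOX and 37.5% of GFP DOX peaks were one-list-only. In *Nkain2* (1201 kb), 85 of 112 Cre DOX peaks and 9 of 42 GFP DOX peaks were found in their list only. In *Dmd*, the dystrophin gene on X (2257 kb), these were 65 of 84 and 7 of 27. *Sntg1*, a syntrophin gene (938 kb), had 62 of 81 and 9 of 39. *Gucy1a2*, a subunit of soluble guanylate cyclase (362 kb), had 47 of 60 and 4 of 16. In *Sorcs2*, a sortilin-related receptor (381 kb), all 22 GFP DOX peaks were found in GFP DOX only and all 6 Cre DOX peaks in Cre DOX only. *Sept9*, a septin (163 kb), had 20 of 31 GFP DOX peaks and 10 of 21 Cre DOX peaks in 1 list only. *Fgfr2*, a growth factor receptor annotated over 2961 kb, had 20 of 25 GFP DOX peaks and 25 of 31 Cre DOX peaks. The gene model *Gm20388*, which spans 4435 kb and many other genes, led both rankings. It had 121 of 194 Cre DOX peaks in Cre DOX only and 136 of 213 GFP DOX peaks in GFP DOX only. The ratio of Cre DOX only to GFP DOX only peaks in bodies was 1.15 in genes shorter than 10 kb, 1.62 at 30 to 100 kb and 4.25 at 500 kb or more, against 1.85 over all protein-coding genes. In the 230 genes of at least 500 kb the numbers were 3364 and 792.

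Genes of R-loop and G4 processing, the pathway in which RTEL1 acts, had promoter peaks in Cre DOX only for 6 of 34 (17.6%, beside 10.1% of all protein-coding genes) and in GFP DOX only for 3 (8.82%, beside 8.3%), while 12 (35.3%) had peaks in both lists, beside 17.5% of all protein-coding genes. These shares are over all genes of a group, and 13 of these 34 promoters (38.2%, beside 64.1%) had a peak in neither list. The higher share in Cre DOX only thus goes with more occupied promoters. A promoter counted in 1 list only can belong to a peak that meets the other list outside the promoter. Among the 6 were *Brca2* (score 19) and *Brca1* (14) of homologous recombination, *Thoc2* of the RNA export complex THO (16), *Fancd2* of the Fanconi anaemia pathway (11) and *Rtel1* itself (10). None of these scores reached the top decile of Cre DOX, 31. The 3 in GFP DOX only were *Brip1*, a helicase (19), *Samhd1*, a dNTP hydrolase (14), and the topoisomerase *Top1* (13). In the bodies, 9 genes had peaks in Cre DOX only (26.5%, beside 14.5%) and none in GFP DOX only (beside 7.33%). The bodies held 52 peaks found in Cre DOX only and 10 in GFP DOX only, a ratio of 5.2 (beside 1.85). Among the one-list-only peaks of Cre DOX, those in *Thoc2* (34), *Rnaseh2a*, a subunit of RNaseH2 (28), and the RNA helicase *Ddx5* (26) had the highest scores, and among those of GFP DOX one in an intron of *Fancd2* (chr6:113569740-113569877, score 42). Telomere maintenance genes had 2 of 21 promoters (9.52%) in each list only, near the shares of all protein-coding genes, *Rtel1* and *Stn1* of the CST complex in Cre DOX and *Rif1* and *Wrap53* in GFP DOX. Within Cre DOX the highest-scoring of their one-list-only peaks was that of *Pot1b*, a shelterin subunit (score 38), before intronic Cre DOX peaks in *Parn*, a poly(A) ribonuclease (27), *Rif1* (25) and *Stn1* (25). *Rif1* therefore had one-list-only peaks of both lists.

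DNA replication and checkpoint genes had promoter peaks in Cre DOX only for 9 of 48 (18.8%, beside 10.1%) and in GFP DOX only for 3 (6.25%, beside 8.3%). The former included *Rfc1* of the clamp loader (score 26), *Clspn*, the checkpoint adaptor claspin (21), *Mcm3* of the replicative helicase (20) and *Orc6* of the origin recognition complex (18). The latter were *Rad1* of a checkpoint clamp (21), *Mcm5* (17) and *Cdc45* (14), subunits of the same replicative helicase. Subunits of 1 complex were therefore found on both sides. Neither list had a peak at 20 of the 48 promoters (41.7%, beside 64.1%). Bodies held 78 peaks found in Cre DOX only and 23 in GFP DOX only (a ratio of 3.39, beside 1.85 over all protein-coding genes), the strongest within Cre DOX in *Pola1* of the primase complex (35) and *Orc3* (31), and within GFP DOX in the ligase gene *Lig1* (34) and in *Rpa1* of the single-strand binding complex (32).

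Ribosomal protein genes, which are short and highly transcribed, had promoter peaks in both lists for 50 of 80 (62.5%, beside 17.5%). Peaks in Cre DOX only were found for 19 of 80 (23.8%, beside 10.1%) and in GFP DOX only for 1 (1.25%, beside 8.3%). Neither list had a peak at 10 of these promoters (12.5%, beside 64.1%). The higher share in Cre DOX only thus goes with more occupied promoters, whereas the share in GFP DOX only was low. The strongest peaks found in Cre DOX only were in *Rpl23* (40), *Rplp0* (36) and *Rps9* (34), and a peak found in GFP DOX only (37) lay in *Rpl27a*, whose promoter had a Cre DOX peak (15). The GFP DOX only promoter was that of *Rpl3l*, a form expressed in muscle. Replication-dependent histone genes had 7 of 67 (10.4%) in Cre DOX only, near the 10.1% of all protein-coding genes, among them *Hist2h2aa1* (32) and the pair *Hist1h1a* and *Hist1h3a*, which share a peak (26), and 1 (1.49%, beside 8.3%) in GFP DOX only, *Hist1h3e* (14). Neither list had a peak at 57 of the 67 histone promoters (85.1%, beside 64.1%). Genes of such families have near-identical copies, and their reads may be split between them.

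Gene groups active in fibroblasts or in their stress responses are set beside the same shares of all protein-coding genes, 10.1% in Cre DOX only and 8.3% in GFP DOX only. Fibroblast and matrix genes had promoter peaks in each list only for 4 of 30 (13.3%), and their bodies held 45 and 49 one-list-only peaks, a ratio of 0.918 (1.85 over all protein-coding genes). In Cre DOX the strongest were in *Fn1*, encoding fibronectin (37), *Timp3*, a metalloproteinase inhibitor (29), and *Mmp2*, a metalloproteinase (27), and in GFP DOX in *Col6a1*, a collagen gene (26). Actin and cytoskeleton genes had peaks in both lists for 18 of 27 (66.7%, beside 17.5%), with 3 (11.1%) in Cre DOX only (*Actn1*, *Actn4* and *Tagln*) and 1 (3.70%) in GFP DOX only (*Tmsb10*). Within Cre DOX, the highest-scoring one-list-only peaks of these genes lay in *Tpm3* (29), *Vcl* (27), *Tpm1* (24) and *Actn4* (23). Immediate early genes had 2 of 26 (7.69%) in Cre DOX only, *Klf6* (26) and *Zfp36* (16), and 4 (15.4%) in GFP DOX only, the transcription factors *Klf2* (27), *Jun* (23), *Atf3* (18) and *Klf4* (15). *Jun* also had a Cre DOX peak in its body (24) and no body peak found in GFP DOX only. Their strongest one-list-only peaks were those of *Maff* (36), *Fosl2* (29) and *Dusp1* (28) within Cre DOX and that of *Klf10* (28) within GFP DOX. Genes of the p53 response had 4 of 29 (13.8%) in Cre DOX only, including *Cdkn1a*, a cyclin-dependent kinase inhibitor (16), and *Bax*, a pro-apoptotic protein (12), and 5 (17.2%) in GFP DOX only, including *Apaf1* of the apoptosome (23) and *Gadd45a* (16). The strongest one-list-only peaks within Cre DOX were those of *Rrm2b*, a ribonucleotide reductase subunit (50), the kinase *Plk3* (29) and *Sesn2* (23), and within GFP DOX that of *Apaf1*.

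Large gene families and very long genes are again set beside the 10.1% and 8.3% of all protein-coding genes. Odorant and vomeronasal receptor genes, active in sensory neurons, had 84 of 1462 (5.75%) in Cre DOX only and 12 (0.821%) in GFP DOX only. Both lists had a peak at 29 of these promoters (1.98%, beside 17.5%), and neither had one at 91.5% (beside 64.1%). The 2 low shares thus go with few occupied promoters, and most of the occupied ones were found in Cre DOX only. Their bodies held 442 and 52 one-list-only peaks, a ratio of 8.5 (beside 1.85). The strongest were in *Vmn1r217* (73), *Vmn1r5* (57) and *Vmn1r77* (44) of Cre DOX and *Vmn2r118* (43) of GFP DOX. Zinc finger protein genes had 51 of 394 (12.9%) and 25 (6.35%), led within Cre DOX by *Zfp697* (54) and within GFP DOX by *Zfp366* (46), *Zfp423* (44) and *Zfp329* (42). Genes of at least 500 kb had 26 of 230 (11.3%) and 29 (12.6%), with strong one-list-only peaks in *Nkain2*, *Cdh13*, *Gabrg3*, a GABA receptor subunit (102, Cre DOX), and *Gm20388* (100, GFP DOX).

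**Figure D5:**
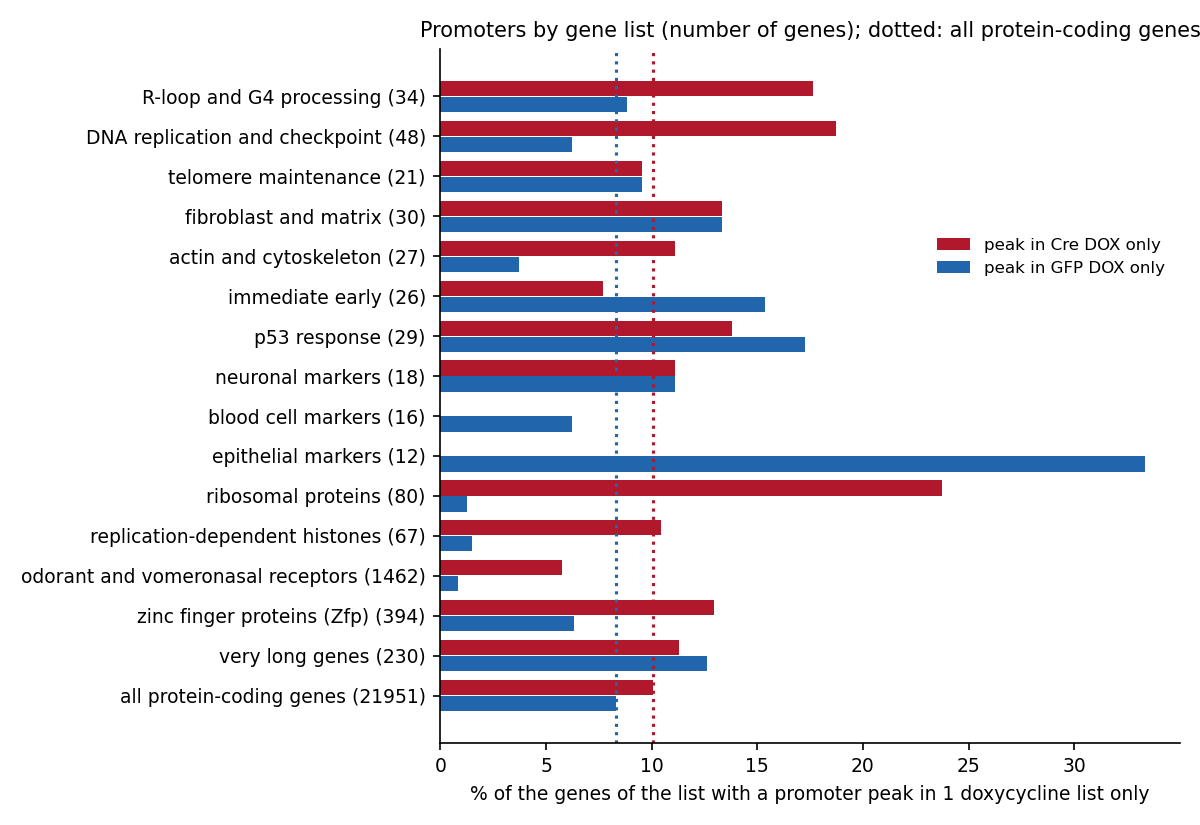
Share of the genes of each list (horizontal axis, %; number of genes in parentheses) with a promoter peak in Cre DOX only (red) or in GFP DOX only (blue). Dotted lines mark all protein-coding genes, 10.1% and 8.3%. Ribosomal protein genes show 23.8% and 1.25%, and immediate early genes 7.69% and 15.4%. Shares are over all genes of a list, with or without a peak. A promoter peak in neither list was the case for 12.5% of ribosomal protein genes, beside 64.1% of all protein-coding genes.

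Markers of other cell types were examined in the same way, beside the 10.1% and 8.3% of all protein-coding genes. Neuronal markers had 2 of 18 (11.1%) in each list only, blood cell markers none of 16 in Cre DOX only and 1 (6.25%, *Tal1*) in GFP DOX only, and epithelial markers none of 12 in Cre DOX only and 4 (33.3%) in GFP DOX only (*Cldn4*, *Esrp1*, *Krt14* and *Krt18*). Promoters with peaks in both lists were 1 of 18 (5.56%), 2 of 16 (12.5%) and none of 12, beside 17.5% of all protein-coding genes and 9 of 30 fibroblast and matrix genes. Within Cre DOX the highest-scoring one-list-only peaks of these genes were intronic, in *Adgre1* (57) and *Itgam* (31) for blood cells, *Rbfox3* (34) and *Elavl4* (30) for neurons and *Ocln* (22) for epithelium, and within GFP DOX a peak at the *Esrp1* promoter (23) led for epithelium. The part of such cells in the lists was not tested.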

How the data were processed

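DRIP-seq peak lists of 4 libraries were used, and the 4 input libraries were not analysed here. The authors aligned single-end reads with BWA in the nf-core/chipseq pipeline and called peaks with MACS2 on mm10, per the paper's methods and the submitters' processing notes. The stated command had a narrow-peak option although the deposited lists are in broad-peak format, and use of the inputs as control was not given in the sources used here. Each deposited row gives a position, a score, a ratio (fold enrichment) and −log10 p-value and q-value per peak. The deposited score equalled 10 times the −log10 q-value, rounded down, in over 99.99% of peaks.

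Overlaps of at least 1 bp, positions and gene content (GENCODE M21, promoter within 1 kb of any transcript start, gene body from start to end of the gene) were computed in Python 3.11.15 with numpy 2.4.6, pandas 2.3.3 and scipy 1.17.1. Predicted G4s were read from the reference by the G4Hunter score (window 25, at least 1.5). The code was tested on simulated data. Samples were grouped by their labels. With 1 library per condition no test was made, and read depth is unknown, so the precision of peak calls cannot be given. Alternatives were other overlap rules, q-value and score limits, equal numbers of peaks, fixed-width midpoints, promoter sizes, G4 definitions, mostly unmasked peaks and autosomes only.

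Genes were named by rule: the 10 protein-coding genes of each list with the highest-scoring promoter peak and none in the other list (genes sharing a peak counting as 1), the 5 highest-scoring one-list-only peaks, the 5 protein-coding genes with most such peaks, up to 4 members per gene list with the highest-scoring such peak (scores of both lists pooled for this choice), and *Rtel1*, *Rnaseh1*, *Actb* and *Bcl6*. Other genes with one-list-only promoters were named after their values were seen. Some genes that the rule or a list takes in are not reported here. The comparison and the gene lists were chosen with earlier results of these data known.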

Additional observations from a re-analysis of the deposited data

How the results depend on the processing

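The share of Cre DOX peaks absent from GFP DOX (70.3%) was 88.0% when at least 50% of a peak had to be covered, 59.6% when peaks within 1 kb counted as shared, 81.6% in the top decile of scores, 78.0% at −log10 q of 2 or more, 59.5% with equal numbers of peaks, 87.3% with midpoints of 200 bp, 72.0% among peaks at most 50% masked and 70.6% on autosomes. In the same order the share of GFP DOX peaks absent from Cre DOX (37.5%) was 46.0%, 25.7%, 66.0%, 45.1%, 48.5%, 77.9%, 66.0% and 39.6%, below that of Cre DOX each time. The ratio of median widths, one-list-only to shared, was 0.378 in Cre DOX (0.334 at the q-value limit, 0.499 at most 50% masked) and 0.534 in GFP DOX (0.284 and 0.467). The promoter share of 8.14% in Cre DOX only was 6.94% by midpoint, 5.43% with promoters of 500 bp and 24.6% at most 50% masked, and that of 21.2% in GFP DOX only was 19.7%, 15.7% and 30.2%. In this masked setting both lists were filtered before they were overlapped, so its values differ slightly from those of masked subsets in the report. Genes with a promoter peak in Cre DOX only (4100) were 2207 among protein-coding genes and 737 in the top decile, and those in GFP DOX only (2677) were 849 in the top decile. Predicted G4s in Cre DOX only (20.1%) were 10.5% at a G4Hunter score of at least 2, 10.3% with a regular expression and 9.77% with midpoints, and in GFP DOX only (27.0%) 11.2%, 11.0% and 22.4%. Overlap with the mock list of the same genotype was 9.30% in the top decile and 12.9% with midpoints for Cre DOX only (20.7%), and 20.0% with midpoints for GFP DOX only (23.5%). The cause of these shifts was not tested. No paired analysis was possible because each condition had 1 library, and for the same reason no replicate could be left out. Unknown read depth limits every statement that a peak is absent.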
